A study of Mus musculus with 11 samples.

Results

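The 30 genes described here are those of T cells and of intraepithelial lymphocytes, the T cells that sit between the epithelial cells of the gut. The rule that picks them uses gene symbols and what is known of the genes and no measured value, but it was written with earlier results of these data known. All 30 were listed among the 24250 genes of the table of all libraries. RNA was sequenced from mouse small intestine in 11 libraries. Of these, 3 formed the group ND, taken to mean normal diet, and 4 the group HFD, taken to mean high-fat diet. A further 4 libraries came from mice given 5 Substances Powder with Poria (the number stands as a word in the labels), a herbal preparation, called FSP here. Which diet the FSP mice ate is not in the labels, although obese mice are named in the title of the series. The sources used here give no age, sex, strain, dose, duration or segment of the small intestine. They also do not say whether each library is a different mouse, so the p-values here cover the variation among samples, part of which could be technical.

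Intraepithelial lymphocytes of the small intestine are mostly CD8-bearing T cells, many with a gamma delta receptor and many with a coreceptor made of CD8 alpha chains alone. They hold granzymes ready made, are kept in the epithelium by the integrin chain encoded by Itgae binding E-cadherin, and depend on interleukin 15 and butyrophilin-like proteins from the epithelial cells. Helper T cells that carry CD4 lie mainly in the lamina propria and, with B cells, in the follicles of Peyer's patches, so a bulk piece of gut can hold a follicle or miss it. In such bulk samples fewer cells of a type and less RNA per cell cannot be told apart.

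The level of most of the 30 genes was low. Values are FPKM, fragments scaled by gene length and by the library total, so that levels of different genes can be set side by side. Estimated library totals ran from 3.18e+07 to 3.81e+07 fragments. In the library with the fewest, 1 FPKM for a gene of 1 kb corresponds to about 32 fragments. A mean of at least 1 FPKM over the 11 libraries was required for a test, which 13 of the 30 genes reached and 17 did not. The 13 were Cd3g, Lck, Cd2, Cd7, Thy1, Cd8a, Gzma, Gzmb, Nkg7, Ctsw, Ccl5, Xcl1 and Klrd1. Levels in the table ran from Ccl5, at a mean of 14.4 FPKM, and Gzma, at 12.2 FPKM, down to Prf1, at 0.0688 FPKM. None of the 8 constant region genes of the T cell receptor that were looked for was listed, so the ratio of gamma delta to alpha beta receptor transcripts was not analysed here.

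None of the 13 tested genes changed between any 2 groups by limma with Benjamini-Hochberg adjustment at a threshold of 0.05. In HFD against ND, 0 of 13 rose and 0 of 13 fell, where 20.5% of all 10296 tested genes changed (5.36% higher and 15.1% lower). In FSP against HFD the count was also 0 of 13, beside 3.74% of all genes (2.83% higher and 0.913% lower). In FSP against ND it was 0 of 13, beside 1.03% of all genes. At an unadjusted p under 0.05 the counts were 1 (Cd2), 0 and 0. The median log2 change of the 13 was −0.003, 0.13 and 0.22 in these comparisons, where all tested genes had medians of −0.21, 0.12 and −0.07. With median-ratio scaling the median of all genes moved from −0.21 to −0.02 in HFD against ND. Each group enters 2 of the 3 comparisons, so the sets of values are not independent. The intervals were wide, as the plot of changes shows: for Gzma the interval was −1.34 to 0.54 when HFD was set against ND. For FSP set against HFD it was −0.22 to 1.52. Changes within these intervals were not excluded by these libraries.

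**Figure D1:**
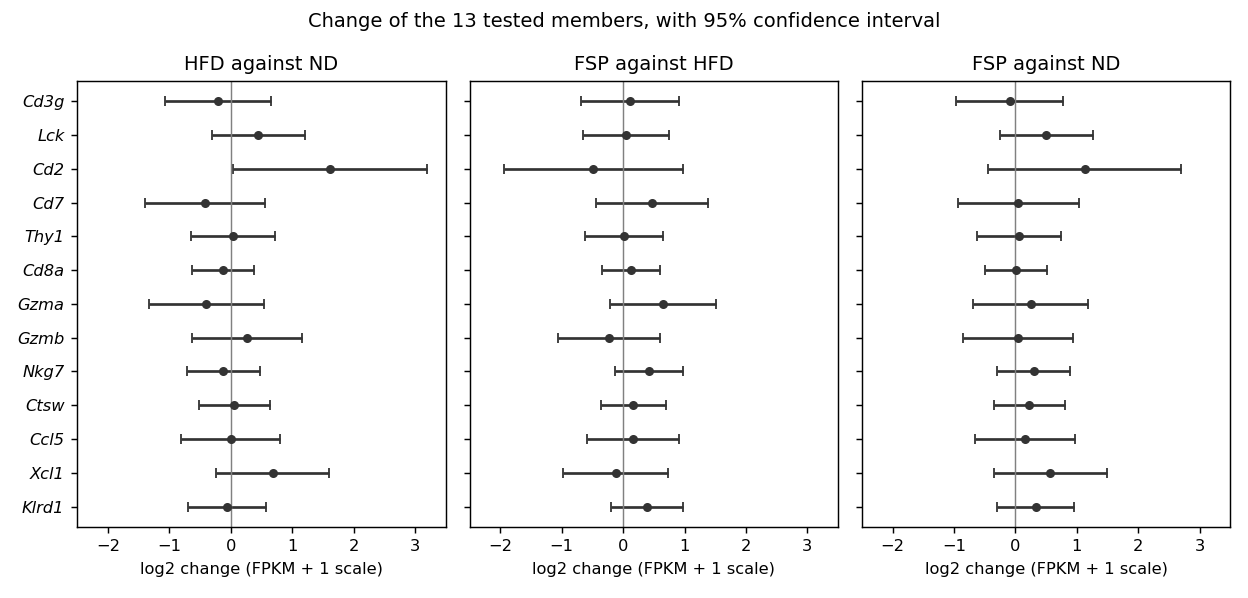
Log2 change on the log2(FPKM + 1) scale (x axis) of the 13 tested genes (y axis) in the 3 comparisons, from limma; points are estimates and bars are 95% confidence intervals. The interval of Cd2 in HFD against ND, from 0.04 to 3.19, lay above 0, and every other interval included 0.

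The cytotoxic and intraepithelial genes, taken first, differed more between the FSP libraries than between the groups. Gzma encodes granzyme A, a serine protease of cytotoxic granules (chromosome 13, 113093825 to 113100981, minus strand, GRCm38 as for all coordinates here). It stood at 10.9, 12.5 and 10.3 FPKM in ND 1 to 3, at 5.63, 8.10, 9.87 and 10.1 in HFD 1 to 4, and at 10.8, 37.2, 6.19 and 12.7 in FSP 1 to 4. All 4 HFD values lay below the lowest ND value, and FSP 2 stood apart above all others. The gap between HFD and ND was narrow: it closed when libraries were rescaled by median ratio or without the mitochondrially encoded genes. The log2 change was −0.40 (SE 0.43, adjusted p = 0.50 by limma) in HFD against ND. Between FSP and HFD it was 0.65 (SE 0.40, adjusted p = 0.413 by limma), and 0.19 without FSP 2.

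Gzmb, which encodes granzyme B, the granule protease that cleaves caspases, stood at 2.83, 2.62 and 1.53 FPKM in ND, at 3.07, 4.31, 2.65 and 2.08 in HFD and at 1.87, 6.70, 0.642 and 2.59 in FSP. The groups overlapped, with FSP 2 the highest library and FSP 3 the lowest. Nkg7, a membrane protein of cytotoxic granules, was at 1.22 to 1.78 FPKM in ND, 1.27 to 1.46 in HFD, and 0.742 to 4.04 in FSP. Its change in FSP against HFD was 0.41 (SE 0.25, adjusted p = 0.415 by limma), and 0.70 (adjusted p = 0.0448 by limma) when FSP 3 was left out. Ctsw, the cathepsin of cytotoxic lymphocytes, had overlapping ranges of 0.737 to 1.66 FPKM in ND, 0.896 to 1.94 in HFD and 0.683 to 2.85 in FSP. Prf1, which encodes the pore-forming protein perforin, was near the limit of detection, between 0 and 0.199 FPKM or at most about 18 fragments in a library. In the same libraries Gzma rested on about 180 to 1378 fragments and Gzmb on about 35 to 354.

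The promoters of Gzma, Gzmb and Nkg7 are shown because these granule genes had their highest value in the same library, FSP 2, and that of Prf1 as the granule gene that was barely counted. Those of Lck and Cd5 are shown because both followed the libraries rich in B cell transcripts. Each line gives the 150 bases before a RefSeq start site (GRCm38.p6). Capitals mark the RUNX core TGTGGT or its reverse complement ACCACA, and the ETS core AGGAAG or its reverse complement CTTCCT. RUNX and ETS factors are families of transcription factors used widely in lymphocytes.
Gzma, chr13:113100982-113101131, minus strand: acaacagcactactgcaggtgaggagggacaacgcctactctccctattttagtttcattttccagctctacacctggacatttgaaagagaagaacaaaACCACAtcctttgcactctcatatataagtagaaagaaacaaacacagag
Gzmb, chr14:56262335-56262484, minus strand: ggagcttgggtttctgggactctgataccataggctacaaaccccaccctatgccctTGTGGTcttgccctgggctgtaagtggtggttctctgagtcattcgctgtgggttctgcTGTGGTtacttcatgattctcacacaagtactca
Nkg7, chr7:43436988-43437137, plus strand: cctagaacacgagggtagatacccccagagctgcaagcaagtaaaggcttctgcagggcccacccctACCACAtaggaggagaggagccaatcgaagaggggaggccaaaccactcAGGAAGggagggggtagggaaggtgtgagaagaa
Prf1, chr10:61297686-61297835, plus strand: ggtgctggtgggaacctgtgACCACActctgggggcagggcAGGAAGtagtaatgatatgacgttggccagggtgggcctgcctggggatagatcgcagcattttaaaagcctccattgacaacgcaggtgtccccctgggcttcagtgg
Lck, chr4:129573642-129573791, minus strand: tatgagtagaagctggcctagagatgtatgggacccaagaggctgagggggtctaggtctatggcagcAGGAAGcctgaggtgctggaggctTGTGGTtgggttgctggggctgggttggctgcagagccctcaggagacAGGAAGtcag
Cd5, chr19:10738975-10739124, minus strand: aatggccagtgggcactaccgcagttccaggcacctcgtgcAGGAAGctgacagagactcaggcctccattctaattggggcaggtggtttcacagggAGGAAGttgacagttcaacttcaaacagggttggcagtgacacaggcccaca
RefSeq promoter entries matched 16 of the 30 genes by symbol, with 20 start sites. Zap70, Lck and Cd160 had more than 1 start site each, so the counts that follow are of windows and not of genes. Of these 20 windows, 8 held the RUNX core on either strand, where 8.4% of 32851 windows of all genes did. The ETS core was found in 13 of the 20 windows, where 19.7% of all windows held it. The windows of the 4 granule genes shown held the RUNX core, Gzmb with 2 copies. Ctsw, a granule gene also highest in FSP 2, had no promoter entry. Of the other pair, the Lck window shown held 1 RUNX core and 2 ETS cores, and the Cd5 window held 2 ETS cores and no RUNX core. The window of another Lck start site (chr4:129558373-129558522, not shown) held no RUNX core and 1 ETS core. Cd3e, Cd3g, Cd8a, Xcl1 and Cd160, not shown, were also highest in FSP 2. The windows of the first 4 held no RUNX core, and both Cd160 windows held 1. Cd247, Cd3d and Lat, not shown, followed the B cell libraries as Lck and Cd5 did. Their windows held no RUNX core, and that of Cd3d no ETS core either. The TATA box TATAAA, searched on both strands, was in 0 of the 20 windows and in 7.57% of all windows. A match describes these letters and is not evidence of binding.

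The chemokine genes of cytotoxic cells behaved unlike each other. Ccl5, which encodes a chemokine stored by memory and intraepithelial CD8 T cells, was the most abundant of the 30 genes. It stood at 14.5, 14.5 and 10.5 FPKM in ND, at 16.1, 11.5, 11.9 and 12.96 in HFD and at 14.7, 29.5, 5.97 and 16.8 in FSP. The ND and HFD ranges overlapped, with a log2 change of −0.003 (SE 0.37, adjusted p = 0.996 by limma; interval −0.82 to 0.81), and FSP held both the highest and the lowest library. Xcl1, which encodes lymphotactin, a chemokine that draws cross-presenting dendritic cells, stood at 0.877, 0.474 and 0.208 FPKM in ND and at 1.64, 1.14, 1.96 and 0.984 in HFD. In FSP it stood at 0.540, 3.67, 0.0506 and 2.17 FPKM. Every HFD library was above every ND library, but the change of 0.68 (SE 0.42) did not pass the test (adjusted p = 0.248 by limma). With only ND and HFD in the fit the adjusted p of Xcl1 was 0.0442 by limma. The gene is short, and its 0.0506 FPKM in FSP 3 rests on about 1 fragment.

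The receptor genes of the cytotoxic group were low. Klrd1 encodes CD94, the partner of the NKG2 receptors on NK cells and some CD8 T cells. Its level was 1.65, 0.738 and 0.728 FPKM in ND, 1.12, 0.778, 0.943 and 0.811 in HFD and 1.67, 3.33, 0.563 and 1.19 in FSP, with overlapping groups. Cd160, a receptor for the herpesvirus entry mediator found on intraepithelial lymphocytes, stood at 0.741, 0.609 and 0.499 FPKM in ND and at 0.321, 0.392, 0.342 and 0.315 in HFD. All 4 HFD libraries lay below all 3 ND libraries, also under both rescalings, while FSP, at 0.518, 0.771, 0.298 and 0.416, overlapped both groups. Cd160 was below the level required for a test, and its values rest on about 27 to 75 fragments per library. Il2rb, the receptor chain shared by interleukins 2 and 15, ranged from 0.127 to 0.772 FPKM with overlapping groups.

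The CD8 coreceptor genes lie 35932 bases apart on chromosome 6. Cd8a, which encodes the alpha chain (71373427 to 71379173, plus strand), stood at 1.21, 1.30 and 0.825 FPKM in ND, at 0.732, 1.12, 0.992 and 0.909 in HFD and at 1.29, 2.13, 0.377 and 1.01 in FSP. Its groups overlapped, and the change was −0.12 (interval −0.63 to 0.38) in HFD against ND and 0.13 (interval −0.34 to 0.59) in FSP against HFD. Cd8b1, the beta chain gene, was lower in every library, from 0 FPKM in ND 3 to 0.642 in FSP 1. The ratio of Cd8b1 to Cd8a was 0.110 and 0.184 in ND 1 and ND 2, between 0.140 and 0.430 in HFD and between 0.147 and 0.499 in FSP. The difference in its log2 between FSP and HFD was −0.06 (exact permutation p = 0.971, two-sided). Cd8b1 was listed at 0 in ND 3, so comparisons with ND were made only with 0.1 FPKM added to both genes. The differences were then 1.0 for HFD and 0.97 for FSP against ND, with overlapping libraries (exact permutation p = 0.0857 for each, two-sided, adjusted p = 0.129 over 6 ratio comparisons).

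The genes of homing and retention were low too. Itgae, which encodes the alpha E integrin chain CD103, stood at 0.606, 0.717 and 0.324 FPKM in ND, at 0.355, 0.517, 0.464 and 0.606 in HFD and at 0.975, 1.23, 0.213 and 0.591 in FSP. Ccr9, the receptor for the gut chemokine Ccl25, was at 0.141 to 0.394, 0.281 to 0.438, and 0.179 to 0.673 FPKM in the same order. Neither gene separated the groups. Cd69, an early activation marker that also holds T and B cells in tissue, behaved otherwise. It stood at 0.387, 0.0901 and 0.178 FPKM in ND, at 1.28, 1.31, 0.524 and 0.0443 in HFD and at 1.18, 0.662, 0.0433 and 0.0756 in FSP. Its 5 highest values lay in HFD 1 to 3 and FSP 1 and 2.

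**Figure D2:**
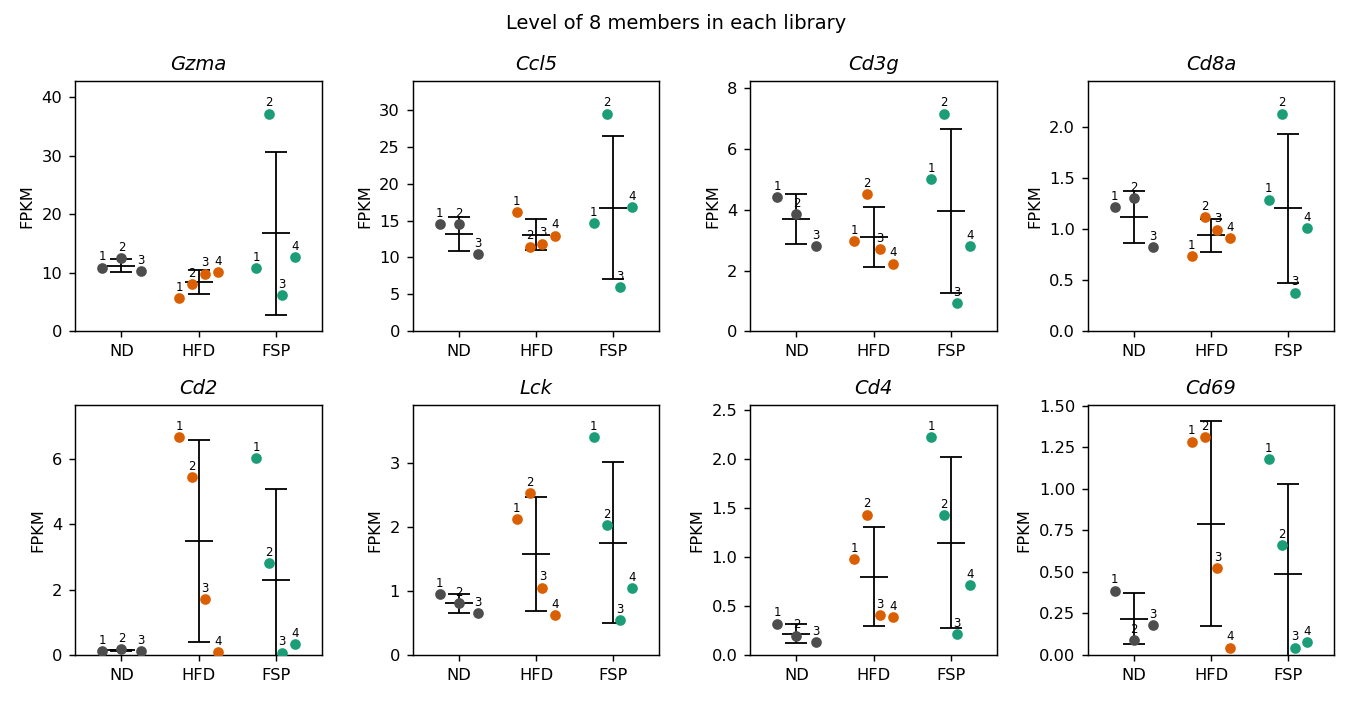
FPKM (y axis) of 8 genes in each library (points, numbered by replicate) by group; horizontal marks are group means and bars are ± 1 SD, cut at 0 (ND n = 3, HFD n = 4, FSP n = 4). Gzma, Ccl5, Cd3g and Cd8a were highest in FSP 2, while Cd2, Lck, Cd4 and Cd69 were high in HFD 1, HFD 2 and FSP 1.

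The genes that all T cells share did not follow a single pattern. Cd3e, Cd3d and Cd3g, which encode signalling chains of the T cell receptor, lie together on chromosome 9, with 1354 bases between Cd3g and Cd3d. Cd3g (44969572 to 44980431, minus strand) was the most abundant, at 4.41, 3.87 and 2.82 FPKM in ND, at 2.98, 4.52, 2.70 and 2.23 in HFD and at 5.0, 7.17, 0.923 and 2.81 in FSP. The groups overlapped, and the change was −0.21 (SE 0.40, adjusted p = 0.711 by limma) in HFD against ND. Over all libraries Cd3e was at 0.242 to 1.04 FPKM, Cd3d at 0.278 to 1.94, and Cd247, the zeta chain gene on chromosome 1, at 0.0188 to 0.229. Cd3d and Cd247, unlike Cd3g, had their 5 highest values in HFD 1 to 3 and FSP 1 and 2.

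Among pan T surface genes, Cd7, a marker of intraepithelial and other innate-like T cells, stood at 4.28, 4.35 and 2.97 FPKM in ND, at 3.04, 2.16, 2.52 and 2.76 in HFD and at 5.85, 9.96, 0.831 and 3.49 in FSP. HFD 1 overlapped ND 3, and the change in HFD against ND was −0.42 (SE 0.45, adjusted p = 0.50 by limma). Thy1, a surface glycoprotein of mouse T cells that fibroblasts and nerves also carry, was at 1.92 to 2.73 FPKM in ND, 1.58 to 4.10 in HFD, and 1.09 to 4.83 in FSP. Cd2, an adhesion receptor that mouse B cells carry as well as T cells (chromosome 3, 101275899 to 101287939, minus strand), varied most. It stood at 0.124, 0.167 and 0.118 FPKM in ND, at 6.67, 5.46, 1.70 and 0.0938 in HFD and at 6.03, 2.82, 0.0688 and 0.320 in FSP. HFD 1 to 3, FSP 1 and FSP 2 stood at 1.70 FPKM or above, and HFD 4 and FSP 3 lay below every ND library. The change of Cd2 in HFD against ND was 1.61 (SE 0.72, adjusted p = 0.124 by limma) and reached an adjusted p of 0.0406 by limma (log2 change 2.17) only without HFD 4 and of 0.0111 (log2 change 2.05) with the replicate number as a block.

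Of the 4 proximal signalling genes, Lck and Lat had their 5 highest values in the same libraries as Cd2, and Zap70 and Skap1 did not. Lck, the kinase that phosphorylates the CD3 chains, stood at 0.948, 0.816 and 0.651 FPKM in ND, at 2.13, 2.53, 1.05 and 0.625 in HFD and at 3.40, 2.03, 0.542 and 1.05 in FSP. HFD 1 to 3, FSP 1 and FSP 2 were the high libraries, with HFD 3 level with FSP 4, and its change was 0.45 (SE 0.35, adjusted p = 0.347 by limma) in HFD against ND. Lat, the adaptor that Zap70 phosphorylates, was at 0.240 to 0.677 FPKM in ND, 0.410 to 1.58 in HFD, and 0.184 to 2.03 in FSP. Zap70, the kinase recruited to CD3, ranged from 0.0791 to 0.870 FPKM over all libraries and the adaptor gene Skap1 from 0.0475 to 0.696. Zap70 was higher in ND 1 (0.437) than in HFD 3 (0.378), and Skap1 in ND 2 (0.309) and FSP 4 (0.438) than in HFD 3 (0.179).

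The conventional and helper T genes were all under 1 FPKM on average and none was tested. Cd4, the coreceptor of helper T cells, which some dendritic and innate lymphoid cells also carry, stood at 0.319, 0.197 and 0.132 FPKM in ND, at 0.977, 1.43, 0.407 and 0.387 in HFD and at 2.22, 1.43, 0.212 and 0.716 in FSP. Every HFD library lay above every ND library, including HFD 4. Cd5, a surface brake on T cell receptor signalling, stood at 0.0658, 0.101 and 0.0873 FPKM in ND, at 0.277, 0.659, 0.327 and 0.124 in HFD and at 0.583, 0.164, 0.0122 and 0.0121 in FSP. Cd28, the main costimulatory receptor, stood at 0.0499, 0.0240 and 0.0177 FPKM in ND, at 0.145, 0.143, 0.124 and 0.0648 in HFD and at 0.160, 0.233, 0.0173 and 0.126 in FSP. For both genes every HFD library was above every ND library, and FSP spread from below ND into the HFD range or above it. Cd6, a relative of Cd5 that lies 50338 bases from it on chromosome 19, overlapped between groups, at 0.115 to 0.205 FPKM in ND and 0.0706 to 0.429 in HFD. Cd5 rested on as few as 2 fragments in a library and Cd28 on as few as 4.

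Counting libraries that do not overlap, 4 of the 30 genes were higher in every HFD library than in every ND library (Cd4, Cd5, Cd28 and Xcl1), where 6.12% of all 24250 genes were. Of the 30, 2 were lower in every HFD library (Gzma and Cd160), where 18.5% of all genes were. The 4 higher genes and Cd160 stayed separated under median-ratio scaling and under rescaling without mitochondrially encoded genes, and Gzma did not. Few fragments lay between the groups, which rescaling does not address. The nearest HFD and ND libraries held about 15 and 11 fragments for Cd28, 23 and 18 for Cd5, and 19 and 16 for Xcl1. For Cd4 they held about 58 and 45, and for Cd160 about 35 and 49. In FSP against HFD, 0 of 30 were separated, where 6% of all genes were. In FSP against ND, 0 of 30 were separated, where 9.8% of all genes were.

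**Figure D3:**
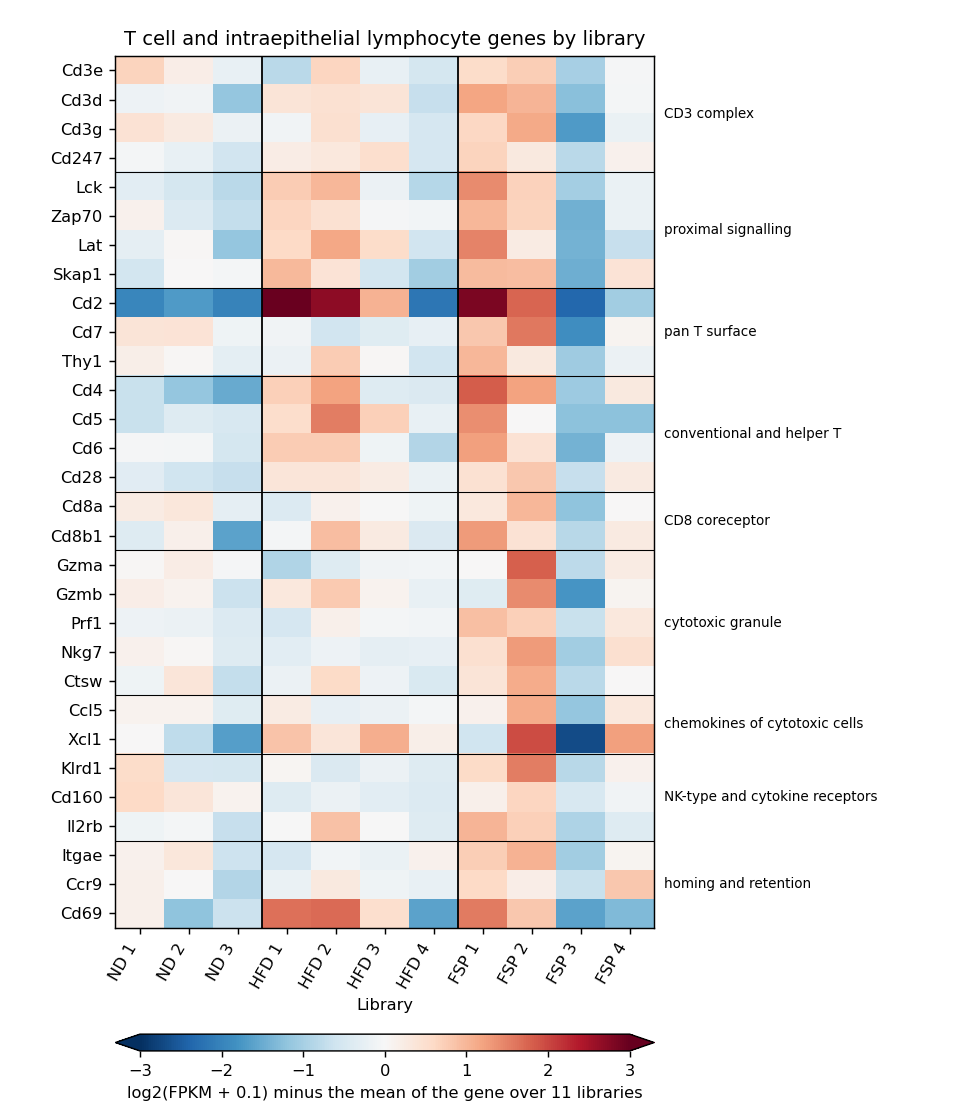
Heat map of log2(FPKM + 0.1) minus the mean of each gene over 11 libraries (colour) for the 30 genes (rows, grouped by role) in each library (columns); vertical lines part ND, HFD and FSP. FSP 3 was the lowest library in 25 of the 30 genes, and FSP 2 or FSP 1 was the highest in 25.

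Single FSP libraries held most of the extremes. FSP 3 was the lowest of the 11 libraries in 25 of the 30 genes, where it was the lowest in 5.64% of all tested genes. The 30 include 17 genes under the level required for a test, a kind that the shares of all tested genes leave out. FSP 2 was the highest in 14 of the 30 and FSP 1 in 11, against 4.77% and 16% of all tested genes. HFD 1, the library with the largest mitochondrial share, was the lowest in 48.3% of all tested genes and in 1 of the 30. The 14 cytotoxic and intraepithelial genes (granule, chemokine, receptor, CD8, Itgae and Ccr9) had a mean log2(FPKM + 1) of 1.29, 1.26 and 0.98 in ND, of 1.16, 1.30, 1.21 and 1.13 in HFD and of 1.39, 1.94, 0.73 and 1.37 in FSP. Cd69, described with Itgae and Ccr9 above, was left out of the 14. The ND and HFD means lay within the range of the FSP libraries. Levels of other cell types also differed among FSP 1 to 4 on this scale. The 8 listed plasma cell genes averaged 3.93, 3.82, 2.58 and 3.27 and the 15 macrophage and dendritic cell genes 2.06, 1.96, 0.76 and 1.70, with FSP 3 the lowest of the 11 libraries in the second list. The 7 smooth muscle genes averaged 7.07, 4.19, 5.69 and 6.41, with FSP 2 the lowest of the 11. Their part in the values of the T cell genes was not tested.

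The ratio of Cd8a to Cd4 within a library, which does not move with the scaling of the library, was 3.81, 6.61 and 6.26 in ND, 0.749, 0.779, 2.44 and 2.35 in HFD and 0.578, 1.48, 1.78 and 1.41 in FSP. All 8 HFD and FSP libraries lay below all 3 ND libraries. The difference in log2 ratio was −2.0 for HFD against ND and −2.16 for FSP against ND (exact permutation p = 0.0286 for each, two-sided, adjusted p = 0.0571 over 4 ratio comparisons). That p is the smallest that 4 libraries against 3 allow, and neither difference passed the threshold after adjustment. Between FSP and HFD the difference was −0.16 (exact permutation p = 0.886, two-sided).

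Markers of B cells and of follicle stroma moved with some of the helper and signalling genes, among them Cd5, Lck and Lat. In all 14 tested B cell genes, among them the receptor chain Cd79a, the 5 highest values lay in HFD 1 to 3 and FSP 1 and 2. Their mean log2(FPKM + 1) was 0.47, 0.40 and 0.24 in ND, 3.67, 3.40, 2.15 and 0.26 in HFD and 3.91, 2.52, 0.22 and 0.47 in FSP. Cd79a stood between 0.752 and 1.47 FPKM in ND and at 99.3, 59.3, 22.8 and 1.31 in HFD. The stroma chemokine Cxcl13, which draws B cells into follicles, stood at 0.137 to 1.18 FPKM in ND and at 66.2, 26.3, 9.80 and 0.0913 in HFD. None of the 14 B cell genes changed in any comparison (limma, 0 of 14 in each, with 6, 0 and 0 at an unadjusted p under 0.05; median log2 change 1.95 in HFD against ND), and their level in HFD 4, FSP 3 and FSP 4, 0.22 to 0.47, was close to that in ND. In 8 of the 30 T cell genes (Cd2, Cd247, Cd3d, Cd5, Cd69, Il2rb, Lat and Lck) the 5 highest values lay in the 5 libraries with the highest B cell level, where 2.07% of all genes showed this. The other helper and signalling genes (Cd4, Cd6, Cd28, Zap70 and Skap1) did not show it.

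With the B cell level as a covariate, added after seeing the data, the change of Cd2 in HFD against ND was 0.07 in place of 1.61. Without those 5 libraries, which leaves HFD 4 as the only HFD library, it was −0.05. The change of Lck was −0.24 and −0.15 in the same settings, in place of 0.45. For Cd8a it was −0.33 and −0.14, beside −0.12, and for Gzma −0.50 and −0.13, beside −0.40. With the covariate 0 of the 13 genes passed in each of the 3 comparisons. The 5 highest values of Cd2 and of Lck lay in the 5 libraries left out, so both settings were bound to lower their changes. The part of follicle content in these changes was not tested. The 3 HFD and FSP libraries with little B cell transcript (HFD 4, FSP 3 and FSP 4) had Cd8a to Cd4 ratios of 2.35, 1.78 and 1.41, where ND ran from 3.81 to 6.61. The part of follicle content in this ratio was not tested.

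**Figure D4:**
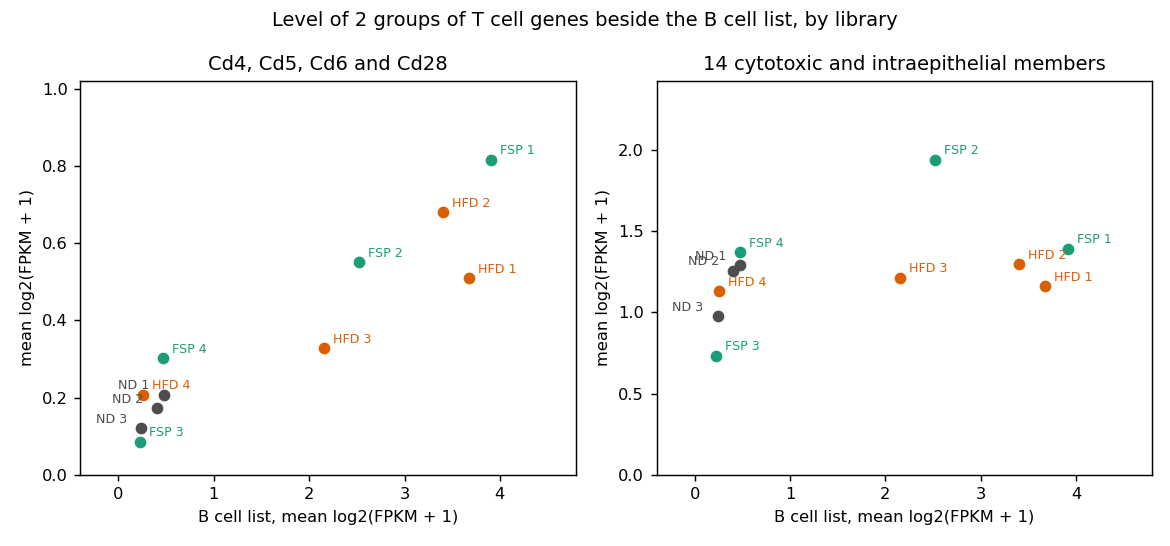
Mean log2(FPKM + 1) of the helper genes Cd4, Cd5, Cd6 and Cd28 (left, y axis) and of the 14 cytotoxic and intraepithelial genes, without Cd69 (right, y axis), against that of the B cell list (x axis), by library; points are libraries, coloured by group. The helper genes were highest in FSP 1 and HFD 2 and the cytotoxic genes in FSP 2, all libraries with a high B cell level. Both sets of genes were lowest in FSP 3, the library with the lowest B cell level.

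Other T cell lists, written down with earlier results of these data known, gave few calls. Of 26 further genes of T cell receptor signalling, 12 were tested and 0 changed in each comparison (limma; 0, 1 and 0 at an unadjusted p under 0.05 for HFD with ND, FSP with HFD and FSP with ND). Their median change in HFD against ND was 0.07. The abundant members that B cells share, Cd52 and Coro1a, an actin-binding coronin, had changes of 2.40 (SE 1.11, adjusted p = 0.139 by limma) and 1.93 (SE 1.04, adjusted p = 0.194 by limma). Of 18 follicular helper and lymph node T cell genes, 6 were tested. In HFD against ND 1 fell, 0 rose and 5 did not pass (median 0.61, with 3 at an unadjusted p under 0.05), a share near the 20.5% of all tested genes that changed. The gene that fell was Maf, a transcription factor of follicular helper cells that other cells of the gut express too, at 228, 153 and 108 FPKM in ND and 44.0, 69.0, 57.6 and 44.1 in HFD (log2 change −1.55, SE 0.29, adjusted p = 0.00419 by limma). Maf stood far above any T cell gene, at a mean of 97.5 FPKM, and without the 5 libraries with high B cell level its change was as large but did not pass (−1.80, adjusted p = 0.0792 by limma).

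The follicular receptor gene Cxcr5, which B cells also carry, stood at 0.0102 to 0.118 FPKM in ND, at 5.51, 4.96, 1.54 and 0.0102 in HFD and at 8.07, 2.69, 0 and 0.00991 in FSP. Its change in HFD against ND was 1.58 (SE 0.79, adjusted p = 0.163 by limma). Between FSP and HFD, and between FSP and ND, 0 of these 6 genes changed (limma; medians 0.10 and 0.72, with 1 at an unadjusted p under 0.05 in each). Bcl6, the factor that directs follicular helper and germinal centre cells, was at 2.47 to 2.94 FPKM in ND and 1.66 to 2.18 in HFD, without overlap, and its change of −0.37 did not pass (SE 0.15, adjusted p = 0.0984 by limma). Klf2 and S1pr1, a factor and a receptor that let lymphocytes leave tissue, and which vessel cells also express, reached 8.94 and 7.53 FPKM in FSP 1. FSP 1 also had the highest B cell level of all libraries, and the part of that level in the values of both genes was not tested.

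Of 19 listed genes of helper lineages and regulatory T cells, 2 were tested, among them Ccr6, and 0 changed in each comparison (limma; 0, 0 and 1 at an unadjusted p under 0.05). Ccr6, a chemokine receptor of helper 17 cells and of B cells, reached at most 0.107 FPKM in ND, and stood at 2.41, 3.06, 0.964 and 0 in HFD. Foxp3, the factor that defines regulatory T cells, did not exceed 0.0854 FPKM in any library. Of 10 NK and innate lymphoid genes, 2 were tested and 0 changed in each comparison (limma; 0, 0 and 1 at an unadjusted p under 0.05). Ncr1, the receptor that defines NK cells, did not exceed 0.151 FPKM.

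Of 38 other cytotoxic and intraepithelial genes, 10 were tested. In HFD against ND 2 fell, 1 rose and 7 did not pass (median 0.38, all genes −0.21), beside 15.1% of all genes lower and 5.36% higher. In FSP against HFD 1 fell and 0 rose, beside 0.913% of all genes lower. In FSP against ND 1 fell and 0 rose, beside 0.33% of all genes lower. Cd38, an ectoenzyme of lymphocytes and of epithelium, stood at 80.7, 64.6 and 51.2 FPKM in ND and at 17.1, 26.8, 22.7 and 18.3 in HFD. It fell by 1.58 on the log2 scale (SE 0.20, adjusted p = 0.000813 by limma) and was lower in FSP than in ND too (−1.28, SE 0.20, adjusted p = 0.0144 by limma). That call was lost in 3 of 23 alternatives, where the change was −1.28 to −1.12, among them leaving out ND 1 (adjusted p = 0.0929 by limma) or ND 2 (0.0951). Fgl2, a fibrinogen-like protein, fell by 0.99 (SE 0.19, adjusted p = 0.00467 by limma), a call lost without the 5 libraries with high B cell level (−0.89, adjusted p = 0.0642 by limma). Hopx, a small homeodomain protein of cytotoxic lymphocytes and of epithelial cells, rose in HFD against ND (0.71, SE 0.18, adjusted p = 0.0177 by limma) and fell in FSP against HFD (−0.75, SE 0.17, adjusted p = 0.0338 by limma). The call of Hopx in HFD against ND was lost without ND 1 or ND 2 (changes of 0.63 and 0.73), and that in FSP against HFD in 10 of 23 alternatives, where the change was −1.07 to −0.62. The mean levels of Cd38, Fgl2 and Hopx, at 35.1, 27.8 and 26.2 FPKM, exceeded that of each of the 30 genes.

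On the epithelial side of the intraepithelial niche single genes differed between groups. Of 17 genes for epithelial ligands and anchors of intraepithelial lymphocytes, 13 were tested. In HFD against ND 1 rose, 2 fell and 10 did not pass (median −0.29, all genes −0.21), a share near the 20.5% of all tested genes that changed. In FSP against HFD 2 rose, 0 fell and 11 did not pass (median 0.22, all genes 0.12), beside 2.83% of all genes higher. In FSP against ND 1 rose and 0 fell, beside 1.03% of all genes changed. Il15, which encodes the cytokine that sustains intraepithelial lymphocytes, stood at 6.18, 6.19 and 6.40 FPKM in ND, at 20.1, 14.1, 14.4 and 14.9 in HFD and at 12.5, 13.4, 11.2 and 9.73 in FSP. The 3 groups did not overlap: ND was lowest and HFD highest. Il15 rose in HFD against ND (1.20, SE 0.14, adjusted p = 0.000725 by limma) and kept that call under all 23 alternatives run. It was also higher in FSP than in ND (0.80, SE 0.14, adjusted p = 0.0285 by limma), a call lost in 10 alternatives, where the change was 0.66 to 0.88. The change from HFD to FSP, −0.41 (SE 0.13), did not pass (adjusted p = 0.124 by limma).

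The interleukin 15 receptor chain gene Il15ra, which presents the cytokine, ranged from 0.943 to 1.65 FPKM over all libraries. Btnl1 and Btnl6 encode butyrophilin-like proteins that form a pair on villus epithelium and sustain gamma delta lymphocytes. Btnl6 stood at 158, 152 and 133 FPKM in ND, at 19.8, 34.97, 67.9 and 86.2 in HFD and at 55.4, 30.6, 146 and 135 in FSP. HFD lay below ND in every library, and FSP split, with FSP 1 and 2 low and FSP 3 and 4 near ND. The change in HFD against ND was −1.69 (SE 0.56, adjusted p = 0.0529 by limma), which passed in 7 of 23 alternatives. Among them was the setting without the 5 libraries with high B cell level, which leaves HFD 4 as the only HFD library (−0.77). Btnl4, a near copy of Btnl6, could share reads with it, and how shared reads were counted is not given in the sources used here. Btnl1 overlapped between groups, from 86.0 to 145 FPKM, with a change of −0.10 (interval −0.48 to 0.27).

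Of the anchors, Cdh1, which encodes E-cadherin, the ligand of the alpha E integrin, overlapped between HFD and ND (94.4 to 128 and 125 to 148 FPKM). Its change was −0.21 (SE 0.13, adjusted p = 0.264 by limma). Ccl25, the chemokine ligand of Ccr9, changed by −0.06 (interval −0.45 to 0.34). Epcam and Cldn7, a cell adhesion molecule and the claudin it binds, fell in HFD against ND and rose in FSP against HFD. For Cldn7 the changes were −0.72 (SE 0.14, adjusted p = 0.00548 by limma) and 0.72 (SE 0.13, adjusted p = 0.0175 by limma), and for Epcam −0.58 (SE 0.16, adjusted p = 0.0296 by limma) and 0.71 (SE 0.15, adjusted p = 0.0306 by limma). The fall of Epcam did not pass in 8 of 23 alternatives (changes of −0.63 to −0.34), among them leaving out any ND library and median-ratio scaling (−0.34, adjusted p = 0.0968 by limma). Its rise did not pass in 8 either (0.48 to 0.76), and the rise of Cldn7 in 4 (0.45 to 0.75). The setting without the 5 libraries with high B cell level, counted among these alternatives, leaves HFD 4 as the only HFD library. There the rises were 0.45 for Cldn7 and 0.48 for Epcam, and the changes in HFD against ND were −0.54 and −0.34.

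**Figure D5:**
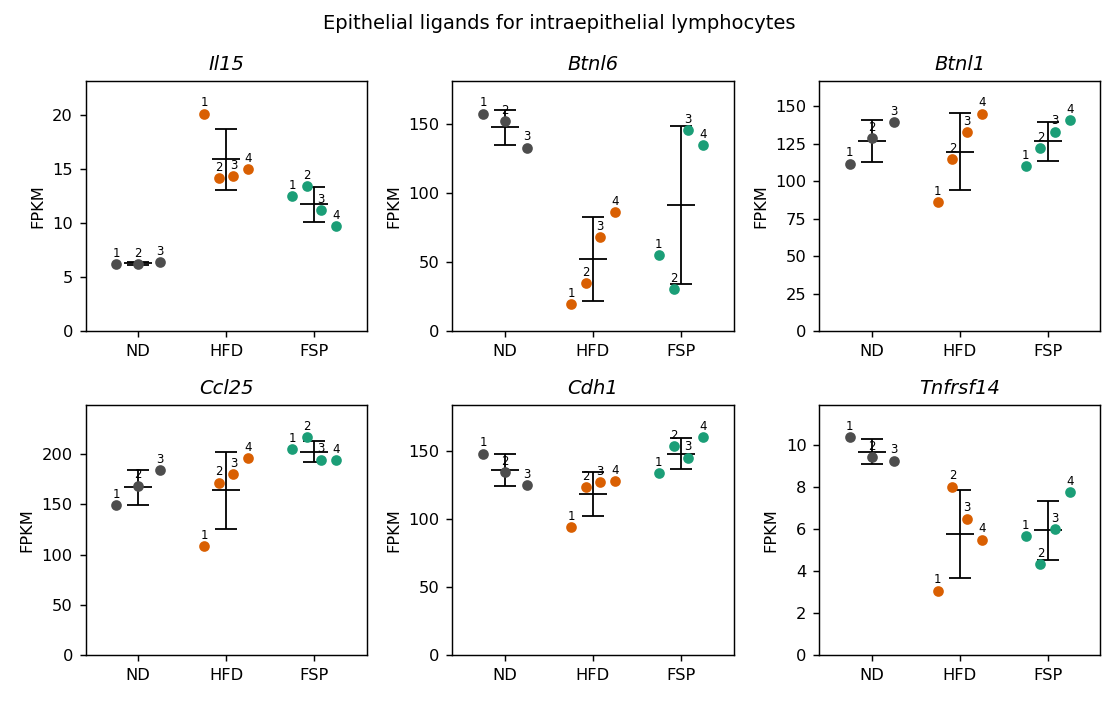
FPKM (y axis) of 6 epithelial genes by group in each library (points, numbered by replicate); horizontal marks are group means and bars are ± 1 SD (ND n = 3, HFD n = 4, FSP n = 4). Il15 was between 6.18 and 6.40 in ND and at or above 9.73 in all HFD and FSP libraries, and Btnl6 was low in HFD and in FSP 1 and FSP 2.

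The groups also differed in epithelial position and in tissue makeup. The mean log2 level of distal minus proximal small intestine genes was 3.13, 2.15 and 0.68 in ND, between −2.45 and −1.45 in HFD and −0.93 to 1.21 in FSP. Mitochondrially encoded genes made up 16.3% to 22.2% of summed FPKM in ND, 18.1% to 40.4% in HFD and 12.9% to 21.9% in FSP. Epithelial keratin and adhesion genes, markers of the labelled tissue, averaged 9.09 to 9.16 on the log2 scale in ND, 8.57 to 9.15 in HFD and 9.23 to 9.45 in FSP. Every FSP library lay above every ND and HFD library. Epcam and Cldn7 belong to this list too. Of 8 tested macrophage and dendritic cell genes 0 changed in each comparison (limma; 0, 1 and 4 at an unadjusted p under 0.05). The part of position, mitochondrial share, epithelial level and follicle content in the values of the T cell genes and their epithelial ligands was not tested beyond the settings given.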

How the data were processed

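RNA of 11 small intestine libraries (3 ND, 4 HFD, 4 FSP, grouped by title) was extracted with TRIzol and prepared with the VAHTS Universal V6 kit, per the labels' protocols. Build mm10 (GRCm38) and the tools HISAT2, HTSeq, fastp and R 3.2.0 appear in the submitters' processing notes. The authors deposited FPKM per gene. Annotation, strand setting and the program behind FPKM are not given in these sources. No counts were used. Single-library tables held identical values (262263 of 262263). Because FPKM divides by the library total, abundant mitochondrial RNA lowers all other genes.

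Library totals were estimated from 362 single-exon genes, whose values of up to 10 fragments were whole multiples (within 0.05) of 1 fragment in 89.6% to 95.4% of cases. Fragments per gene are approximate and use GENCODE exon lengths.

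On log2(FPKM + 1), limma 3.58.1 (R 4.3.3) was run with an intensity trend, 3 groups in a single fit, two-sided, Benjamini-Hochberg over 10296 genes with a mean of at least 1 FPKM, threshold 0.05. The fit was tested on simulated data. Log2 changes on this scale understate those of low genes. Ratios were tested by exact permutation. The members and lists were chosen with earlier results of these data known. Values per library are given for the most abundant gene of each role group and for genes whose groups separated; of other lists, up to 6 abundant or low-p genes are named. Cd2, Gzmb and Cd69, and genes of other lists named for comparison (Il15ra, Foxp3, Ncr1, Cd79a, Cxcl13), were added after their values were seen. Alternatives were pseudocounts of 0.1 and 0.5, 2 filters, 3 scalings, 2-group fits, a replicate block, no trend, each library left out, and the 2 B cell settings. The B cell setting that leaves out 5 libraries keeps HFD 4 as the only HFD library.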

Additional observations from a re-analysis of the deposited data

Results flagged for a closer look

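Within groups of 4 libraries, 64 sets of values were examined for a library that stands apart (by Dixon's ratio of the gap to the whole range, at the 95% level), and chance alone marks about 1 set in 20. The examination marked 2. Cd3d, a chain of the T cell receptor complex, was at 0.461 FPKM in HFD 4, where the other HFD libraries lay between 1.08 and 1.14 FPKM (gap 0.917 of the range). HFD 4 was also the HFD library with the lowest B cell level. Ccr9, the receptor for Ccl25, was at 0.438 FPKM in HFD 2, where the other HFD libraries lay between 0.281 and 0.302 FPKM (gap 0.867 of the range). Neither value was past the level required for a test.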

How the results depend on the processing

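The count of genes past the threshold was 0 of 13 in every setting run for FSP against ND. For HFD against ND it was 1 with only the 2 groups compared (Xcl1) and 1 with the replicate block (Cd2), and leaving out each library in turn gave 0 to 1 (Cd2 without HFD 4). For FSP against HFD leaving out each library gave 0 to 1 (Nkg7 without FSP 3). Lower filters tested 24 or all 30 genes and called 0 in each comparison. Without 1 library each, the log2 difference in the Cd8a to Cd4 ratio was −2.28 to −1.71 for HFD against ND and −2.41 to −1.80 for FSP against ND, and its sign changed for FSP against HFD (−0.44 to 0.20). With 0.1 added to both genes it was −1.60 for HFD and −1.75 for FSP against ND. The exact permutation p, two-sided, was then 0.0857 for HFD and 0.0286 for FSP (adjusted p = 0.129 for each over 6 ratio comparisons). The Cd8b1 to Cd8a ratio, −0.40 to 0.20, changed sign too. The cause of these shifts was not tested. Deviations of samples sharing a replicate number had correlations of −0.09 to 0.04 for HFD against ND and −0.10 to 0.20 for FSP against ND. For FSP against HFD they were 0.02 to 0.45, where FSP 3 and HFD 4, of unlike number, reached 0.65. Libraries correlated best with their own number in 1 of 6, 0 of 8 and 2 of 6 cases, so the numbers give no pairing, and the block changed no other count. The log2 changes of the 13 tested genes, over 3 comparisons and 23 alternatives, kept direction and side of the threshold in 802 cases, moved in 91 and passed it in 4. The low level of 17 genes limits what depth can show for them.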
